A study of Chlorella sorokiniana and Chromochloris zofingiensis with 12 samples.

Results

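The 94 tags described here are small RNA reads of 16 to 18 bases that appeared in the tag table of only 1 of 2 green algae, 43 of the 166 tags of Chlorella sorokiniana and 51 of the 165 tags of Chlorella zofingiensis. They were chosen by their length and by being among the 100 commonest tags of at least 1 library of one species and of no library of the other, so their presence in 1 species is not a result. Both tables together held 292 different tags of 16 to 26 bases. A tag is one exact read sequence with the number of reads that had it.

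Each species was grown as a normal and as a stress culture, with 3 small RNA libraries in each of the 4 groups. C. sorokiniana strain NIES-2168 and C. zofingiensis strain ATCC30412 were kept at 27 °C and 30 rpm in Bold's Basal Medium. Normal cultures had continuous light of 10 µmol photons, and stress cultures, from mid log phase, had 100 µmol photons and 2% glucose, so the effects of light and of glucose cannot be told apart. Whether the libraries of a group came from separate cultures is not given in the labels, and p-values therefore measure the spread between these libraries only.

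Small RNAs of algae include microRNAs, which guide the silencing of matching messages, and fragments of longer RNAs such as ribosomal RNA (rRNA) and transfer RNA (tRNA). Reads of 16 to 18 bases are shorter than most microRNAs, and in total small RNA libraries many reads of that size come from abundant structured RNAs. When several fragments share one end and differ at the other by single bases, they are called a ladder here. Algal cells make cytoplasmic rRNA from nuclear genes and bacteria-like rRNA in chloroplasts and mitochondria.

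The tags are named S1 to S43 and Z1 to Z51, in the order of their mean share of the listed reads of their species, because they were not matched to a genome and have no gene names. Each library listed exactly 100 tags, and the listed reads of a C. sorokiniana library numbered 46518 to 406492, those of a C. zofingiensis library 81672 to 500007. A share is the percent of those listed reads, and a tag at 0 in a library was outside its 100 commonest tags, not absent. The smallest share that a library listed ran from 0.0999% to 0.204% in C. sorokiniana, and in the other alga from 0.146% to 0.252%. Unlisted tags below these limits were not detectable, and the higher limits were those of the stress libraries in both species.

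Short tags of 1 species held a larger part of the listed reads under stress in both algae. In C. sorokiniana they held 10.3%, 12.9% and 8.39% in the normal libraries and 14.8%, 17.2% and 17.5% in the stress libraries. In C. zofingiensis they held 9.36%, 9.74% and 7.35% in the normal and 13.9%, 13.5% and 14.4% in the stress libraries. The groups did not overlap in either species, with means of 10.5% ± 2.24 and 16.5% ± 1.48 (SD, n = 3) in C. sorokiniana and of 8.82% ± 1.28 and 13.9% ± 0.447 in C. zofingiensis. A single tag, S2, with a mean share of 0.298% in normal and 3.75% in stress libraries, carried over 0.5 of the difference of 6.01 percentage points in C. sorokiniana. Without S2 the sum there was 10.2% ± 2.35 in normal and 12.8% ± 0.844 in stress libraries, and the groups overlapped. That sum still held tags listed in 1 condition alone, which are at 0 in the other by definition. Those of stress libraries alone had a mean of 2.62% under stress, and those of normal libraries alone 1.08% in normal libraries. The C. sorokiniana tags listed in all 6 libraries, S2 included, went from a mean of 8.64% to 12.1%, and S2 alone rose by about as much. Without Z2, the tag with the largest difference in share in C. zofingiensis, the sum was 8.45% ± 1.28 and 11.7% ± 0.323, still without overlap. An exact permutation test of 3 libraries against 3 cannot give a two-sided p below 0.1, so no such sum could pass a threshold of 0.05. A higher share under stress was not particular to these tags. In C. sorokiniana the tags of 19 to 21 bases in 1 table alone went from a mean of 7.57% to 9.65%. Those of 22 to 26 bases went from 8.47% to 14.2%, both without overlap. In C. zofingiensis these 2 lengths overlapped between the groups. Its tags of 16 to 18 bases in both tables went from 11.4% to 16.6% without overlap, while those of C. sorokiniana overlapped. The shares of a library have a fixed total, so higher shares of some tags go with lower shares of others. Tags of any length in both tables fell from a mean of 73.4% to 59.6% in C. sorokiniana, without overlap. In C. zofingiensis they went from 62.2% to 58.6%, with overlap.

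By length, the 18-base tags of C. sorokiniana did not overlap between the groups, at 3.05%, 3.00% and 2.31% in normal and 7.81%, 8.96% and 10.1% in stress libraries. S2 is one of them, and without it their means were 2.49% and 5.22%, again without overlap. The 16-base tags of that alga had means of 5.65% in normal and 4.50% in stress libraries and the 17-base tags 2.08% and 3.05%, with overlapping groups for both. In C. zofingiensis the sums of all 3 lengths were higher under stress without overlap. They went from 3.48% to 5.61% for 16 bases, from 3.47% to 4.65% for 17 bases and from 1.86% to 3.66% for 18 bases. The length sums of both algae held tags listed in a single condition, which are at 0 in the other by definition. These sums therefore cannot tell whether the tags listed in both conditions rose at each length. Among the 16-base C. zofingiensis tags listed in all 6 libraries, Z2 and Z11 had higher shares in every stress library and Z1 lower ones. Tags that were listed in stress libraries alone made up 4.54%, 3.88% and 5.41% of the stress reads of C. zofingiensis. Without those tags the sum of the others was 8.82% ± 1.28 in normal and 9.31% ± 0.325 in stress libraries, and the groups overlapped. That sum still held the tags listed in normal libraries alone, which are at 0 under stress by definition. It therefore cannot tell whether the rise rested on the tags of stress libraries alone. The C. zofingiensis tags listed in all 6 libraries held 5.93%, 5.63% and 4.63% in normal and 7.08%, 7.56% and 7.74% in stress libraries, without overlap.

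**Figure D1:**
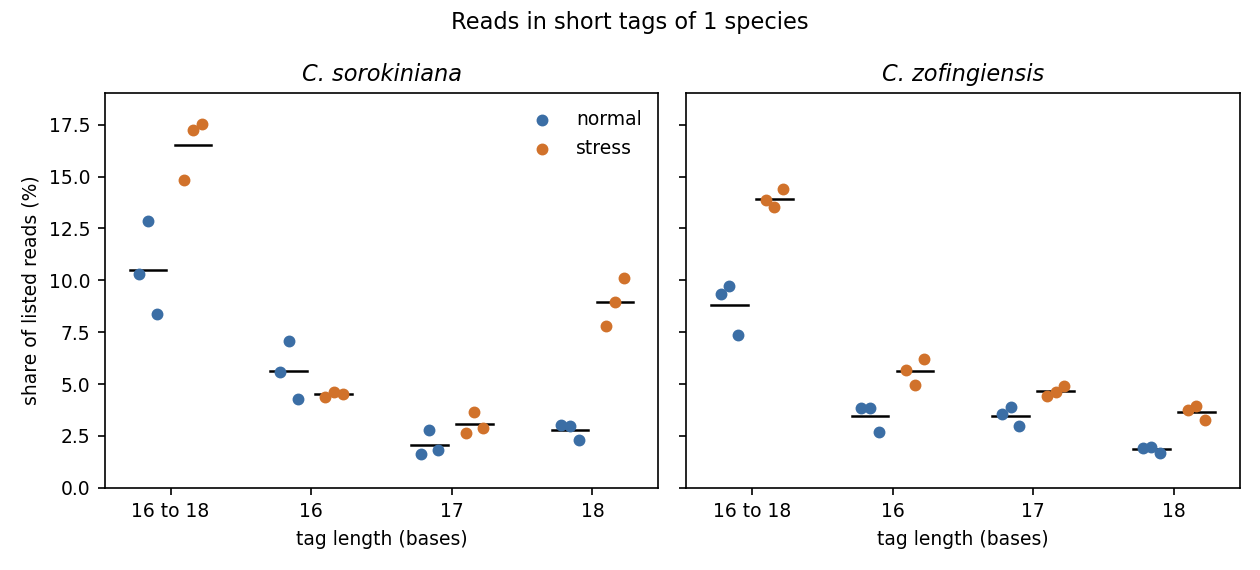
Share of listed reads (%) held by short tags of 1 species, in all and by tag length; each point is a library and each line the mean of 3. The stress libraries lie above the normal libraries for the sum in both species, at 14.8% to 17.5% and 13.5% to 14.4%, and for 18 bases. All sums include tags listed in a single condition, which are at 0 in the other by definition.

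The normal and stress libraries shared only part of these tags. In C. sorokiniana 11 of the 43 were listed in all 6 libraries, 12 in stress libraries alone, 13 in normal libraries alone and 7 in some libraries of both conditions. In C. zofingiensis 11 of the 51 were listed in all 6 libraries, 22 in stress libraries alone, 15 in normal libraries alone and 3 in some of both. Many tags rested on a single library, 12 of the C. sorokiniana tags and 18 of the others. The number of these tags listed per library was 22, 26 and 19 in normal and 25, 27 and 22 in stress libraries of C. sorokiniana, which overlap. It was 23, 24 and 19 against 31, 26 and 27 in C. zofingiensis, which do not.

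Of the tags of 19 to 21 bases that only the C. zofingiensis table held, 8 of 36 were listed in stress libraries alone, and of those of 22 to 26 bases 13 of 39, beside the 22 of 51 short ones. In C. sorokiniana the corresponding counts were 11 of 43 and 13 of 41, beside 12 of 43. These counts were not tested against each other.

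**Figure D2:**
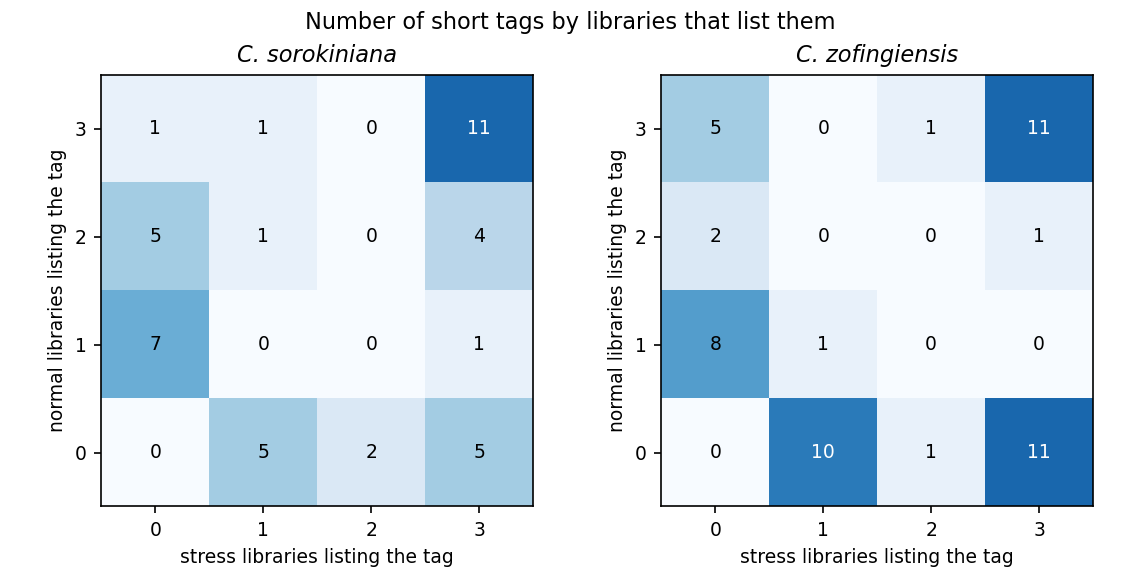
Number of short tags of 1 species (in each cell) by how many normal libraries (vertical axis, 0 to 3) and how many stress libraries (horizontal axis, 0 to 3) listed them. In each species 11 tags stand in the upper right cell, listed everywhere, and C. zofingiensis has 11 more that all 3 stress libraries and no normal library listed.

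Each species' whole table was tested for stress against normal with edgeR's quasi-likelihood test, and tags with a Benjamini-Hochberg adjusted p below 0.05 over all tags tested were called. In C. sorokiniana 24 of the 43 short tags passed the filter on low counts and 13 were called, 9 higher and 4 lower under stress, where 39.6% of all 106 tags tested were called, 22.6% higher and 17.0% lower. In C. zofingiensis 29 of the 51 passed the filter and 20 were called, 13 higher and 7 lower, where 56.5% of all 115 tags tested were called, 29.6% higher and 27.0% lower. Tags listed in 1 condition alone passed the filter through that condition and had to differ, and they make up 6 of the 13 calls and 16 of the 20. Among the tags listed in all 6 libraries 7 of 11 short tags were called in C. sorokiniana, where 38.9% of 54 such tags were called, and 4 of 11 in C. zofingiensis, where 33.9% of 56 were. The latter share is close to the background.

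Deviations of same-numbered libraries of C. sorokiniana correlated at 0.54, 0.13 and 0.52, though normal replicate 2 correlated more with stress replicate 3, at 0.29. With the replicate number as a block 4 of the 13 calls of that alga passed, the rises of S2 and S6 and the falls of S5 and S7. Over all tags tested the median log2 fold change was 0.07 for C. sorokiniana and 0.05 for C. zofingiensis, and with library totals alone it was 0.32 and 0.44. Over the short tags tested it was 1.01 and 0.57. The latter medians include tags at 0 in a whole condition, which had to differ. Of these, 5 and 11 were listed in stress libraries alone and 1 and 5 in normal libraries alone. No shift of the short tags is therefore read from these medians. Shares of listed reads follow the totals, so a share can be higher under stress by more than its fold change says. In the authors' deposited table an FDR below 0.05 stood beside 9 of the 43 short tags of C. sorokiniana and 20 of the 51 of C. zofingiensis, against 18.7% and 38.2% of all tags, and 9 and 19 of these were also called here.

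**Figure D3:**
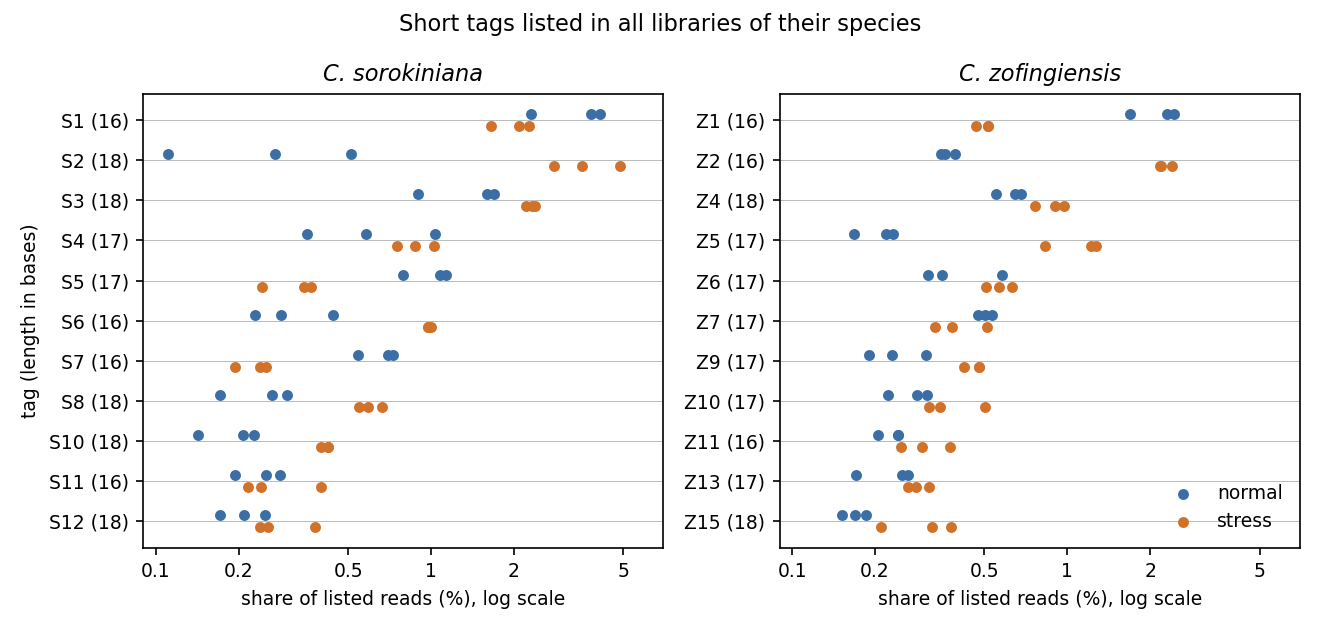
Share of listed reads (%, log axis) of each short tag listed in all 6 libraries of its species, with its length in brackets; each point is a library. S2, S6, S8, S10, Z2 and Z5 were called higher and S1, S5, S7, Z1 and Z7 lower under stress.

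The largest rise among the C. sorokiniana tags listed everywhere was that of S2, an 18-base tag that neither contained nor lay inside another tag of the table. S2 had shares of 0.111%, 0.270% and 0.514% in the normal and 2.81%, 3.54% and 4.88% in the stress libraries. All stress libraries lay above all normal ones, and the normal libraries themselves differed by more than 4 times in share. The mean share was 12.6-fold higher under stress, with a log2 fold change of 3.40 ± 0.65 (SE; edgeR quasi-likelihood, Benjamini-Hochberg adjusted p = 0.0116). Without normal replicate 2 the adjusted p was 0.0503 (edgeR, Benjamini-Hochberg). S2 held none of the 14 rRNA and tRNA motifs searched, and its RNA of origin was not identified.

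S1, of 16 bases, was the commonest short tag of C. sorokiniana and was lower under stress. Its shares were 3.81%, 4.12% and 2.32% in normal and 2.08%, 1.65% and 2.27% in stress libraries, so the third normal library lay just above the highest stress library. The log2 fold change was -1.01 ± 0.26 (edgeR quasi-likelihood, Benjamini-Hochberg adjusted p = 0.0315). The call was lost with library totals alone (adjusted p = 0.0678), with the replicate block (0.0515), and without normal replicate 1, normal replicate 2 or any of the 3 stress libraries (0.0904 to 0.142; all edgeR with Benjamini-Hochberg adjustment).

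The tags that extend S1 at its start by 1 and 2 bases, S17 and S10, did not fall. S10 had 0.228%, 0.207% and 0.142% in normal and 0.423%, 0.399% and 0.422% in stress libraries, with no overlap. Its log2 fold change was 0.86 ± 0.23 (edgeR quasi-likelihood, Benjamini-Hochberg adjusted p = 0.0352), a call that was lost with the replicate block (0.432) and without normal replicate 2 or any stress library (0.0667 to 0.152). S17 was unlisted in normal replicate 3 and did not pass (adjusted p = 0.732, edgeR). The difference between S1 and S10 within the same libraries was not tested.

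A second ladder of C. sorokiniana shares its end and steps back at its start from S6 (16 bases) over S4 (17) to S3 (18). S3, the commonest of them, had 1.70%, 1.59% and 0.896% in normal and 2.32%, 2.22% and 2.40% in stress libraries, without overlap, but its log2 fold change of 0.48 ± 0.26 did not pass (edgeR quasi-likelihood, Benjamini-Hochberg adjusted p = 0.235). S4 overlapped between the groups, with a log2 fold change of 0.18 ± 0.42 (adjusted p = 0.774, edgeR). The shortest form, S6, had 0.285%, 0.440% and 0.230% in normal and 0.980%, 1.00% and 0.972% in stress libraries. It rose by 1.38 ± 0.26 on the log2 scale (edgeR quasi-likelihood, Benjamini-Hochberg adjusted p = 0.0111, or 0.0142 with the replicate block). The 3 tags together were 34.7% to 40.0% of the reads of their 11-tag family in each of the 6 libraries.

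The third ladder of that alga, S15, S13 and S8, also keeps its end and lengthens at its start. S8 (18 bases) had 0.171%, 0.300% and 0.264% in normal and 0.547%, 0.592% and 0.664% in stress libraries, a log2 fold change of 1.04 ± 0.26 (edgeR quasi-likelihood, Benjamini-Hochberg adjusted p = 0.0268). This call was lost with the replicate block (0.0515) and without normal replicate 3 or any stress library (0.0564 to 0.0857). It was also lost with unlisted tags at the smallest listed count (0.0583), as was that of S10 (0.146). S13 (17 bases) was listed in no normal library and had 0.410%, 0.482% and 0.430% under stress, at least 4.17-fold the share that the normal libraries could list. The 3 tags were 11.2% to 12.1% of the reads of their 11-tag family in normal and 17.1% to 18.2% in stress libraries.

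In C. zofingiensis the ladder of Z2, Z5 and Z3, which share their end, held both tags that rose among those listed everywhere. Z2 (16 bases) had 0.348%, 0.392% and 0.360% in normal and 2.18%, 2.17% and 2.41% in stress libraries. Its mean share was 6.15-fold higher under stress, and it rose by 2.26 ± 0.14 on the log2 scale (edgeR quasi-likelihood, Benjamini-Hochberg adjusted p = 3.95e-05). Z5 (17 bases) went from 0.232%, 0.220% and 0.167% to 1.27%, 1.21% and 0.832%, a rise of 2.08 ± 0.29 (edgeR quasi-likelihood, Benjamini-Hochberg adjusted p = 0.00108).

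Z3 (18 bases) had 0.202% and 0.172% in normal replicates 1 and 2, was unlisted in normal replicate 3, and had 1.76%, 1.79% and 1.25% under stress. It did not pass with the unlisted value as 0 (edgeR quasi-likelihood, Benjamini-Hochberg adjusted p = 0.185), but did without that library (0.00175) and with unlisted tags at the smallest listed count (0.000221). The 3 tags made up 11.8% to 17.7% of the reads of their 11-tag family in normal and 28.5% to 41.3% in stress libraries, without overlap. The C. sorokiniana tag S8 differs from Z5 over 16 aligned bases by T7G, T8G and C10A, with the base of S8 first, positions counted from 1 at its 5′ end, and the last base left out. Both members of this pair were called higher under stress, each in its own species, but the call of S8 was lost with the replicate block (adjusted p = 0.0515, edgeR). The pair is 1 of 30 such pairs between the algae, and in most of the others 1 or both members were not called.

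**Figure D4:**
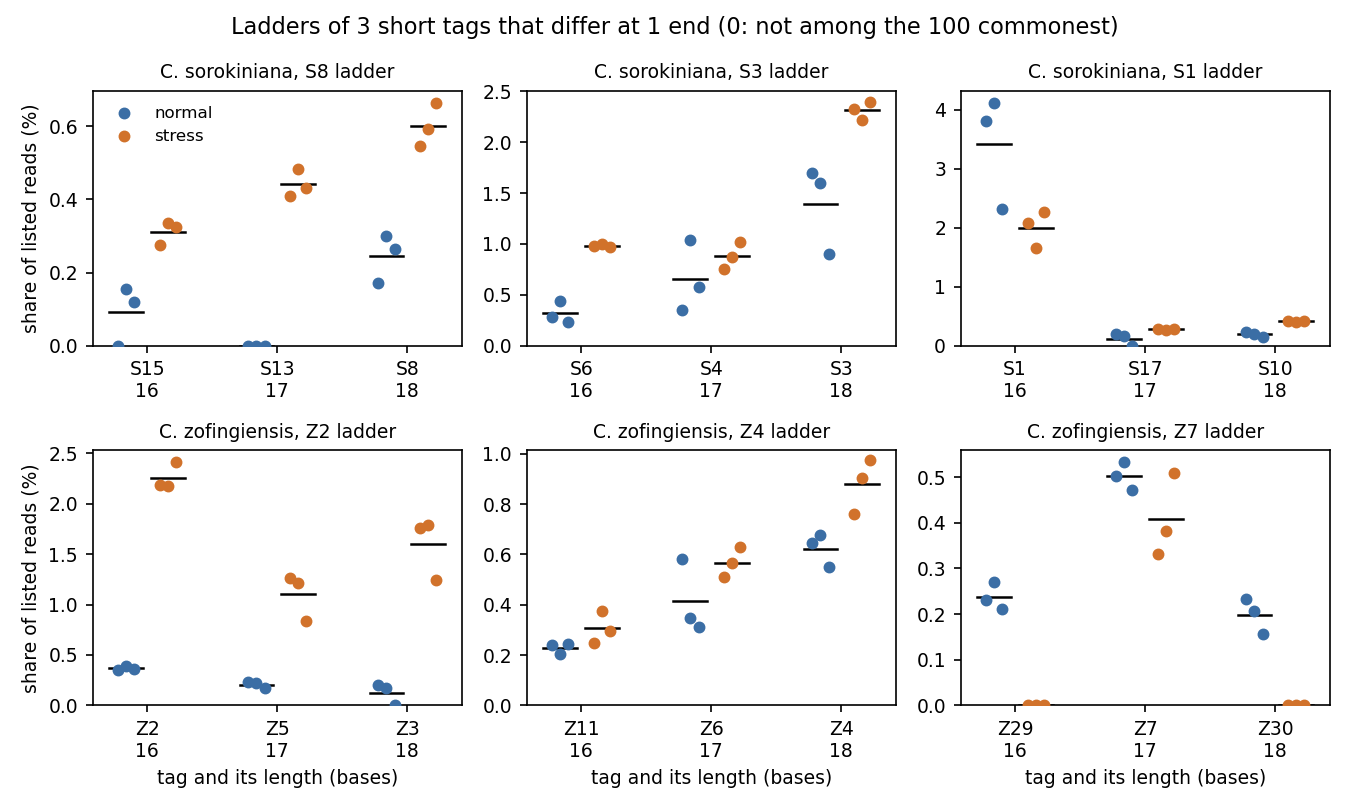
Share of listed reads (%) of the 3 short tags of 6 ladders, by tag length, with a point for each library, a line at the mean of 3, and 0 for libraries that did not list the tag. In the upper row and in the Z2 ladder the tags lengthen at their start, in the Z4 and Z7 ladders at their end; Z2 lies at 0.348% to 0.392% in normal and 2.17% to 2.41% in stress libraries.

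Z1, of 16 bases, was the commonest short tag of C. zofingiensis and fell. It had 2.44%, 2.31% and 1.69% in normal and 0.516%, 0.515% and 0.468% in stress libraries, a 4.29-fold lower mean share under stress and a log2 fold change of -2.45 ± 0.22 (edgeR quasi-likelihood, Benjamini-Hochberg adjusted p = 0.000128). A pair of tags around it were listed in normal libraries alone. Z8, which has 1 more base at its end, had 0.837%, 0.890% and 0.831%, and Z12, with 2 more bases at its start, had 0.537%, 0.554% and 0.468%. Both were called lower (edgeR quasi-likelihood, Benjamini-Hochberg adjusted p = 3.95e-05 and 4.27e-05), which tags at 0 in all stress libraries had to be. Their shares were at least 3.73-fold and 2.27-fold lower under stress. The 3 tags were 85.3% to 88.8% of the reads of a family of 5 tags in normal libraries, and all of its listed reads under stress.

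Other C. zofingiensis tags of normal cultures were Z17 and the ladder of Z29, Z7 and Z30. Z17 had 0.159%, 0.511% and 0.498% and no listing under stress, at least 1.70-fold lower there (edgeR quasi-likelihood, Benjamini-Hochberg adjusted p = 0.00108). At 0 in all stress libraries it had to differ, and the call was lost with the replicate block (0.107, edgeR with Benjamini-Hochberg adjustment). Z7 was listed everywhere, at 0.502%, 0.533% and 0.472% in normal and 0.331%, 0.382% and 0.510% in stress libraries, so the groups overlapped in share. Its log2 fold change of -0.68 ± 0.15 passed (edgeR quasi-likelihood, Benjamini-Hochberg adjusted p = 0.00988) but not with library totals alone (0.249). Z29 and Z30, which are 1 base shorter and 1 base longer at the end, were listed in the 3 normal libraries alone. The bound on the fold of Z29 was 1.04 and that of Z30 was 0.866, so the shares set almost no limit on how far they were lower.

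Among the C. sorokiniana tags listed in all 3 normal and no stress libraries there was only S27, at 0.122%, 0.113% and 0.172%. It was called lower (edgeR quasi-likelihood, Benjamini-Hochberg adjusted p = 0.00175), but its bound of 0.733 lies below 1, since the stress libraries list only larger shares. With unlisted tags at the smallest listed count S27 was not called.

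Some short tags of C. sorokiniana were listed in part of the normal libraries. S9, with S14 and S18 in a ladder that keeps its end, had 0.360% and 0.147% in normal replicates 1 and 2, no listing in normal replicate 3, and 0.460%, 0.517% and 0.431% under stress. The stress libraries lay above the normal ones, but S9 did not pass (adjusted p = 0.677, edgeR). The 3 tags of this ladder summed to 0.676%, 0.273% and 0 in normal and 1.09%, 1.29% and 0.961% in stress libraries.

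Short motifs of conserved RNAs were searched on the strand of the tag, in the tag itself and in the longer tags that contain it. No short tag had more than 1 of the 14 motifs, of which those without a result of their own were GGTTGATCC and CTTAAAGGA of 18S rRNA, ACGCCTCTA of 28S rRNA, GGTAGGGGA of 23S rRNA and TGGCCGAG of tRNA for serine or leucine. A match describes letters, and a tag without one can still be rRNA or tRNA. A motif of the nuclear 18S, 5.8S or 28S rRNA was found for 10 of the 43 short tags of C. sorokiniana and 7 of the 51 of C. zofingiensis, and no motif for 22 and 28.

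The 5.8S rRNA, cut from the same precursor as 18S and 28S rRNA, starts near CAACAACGG, which 10.2% of all C. sorokiniana tags and 6.06% of C. zofingiensis tags hold. In C. sorokiniana it lay in 6 short tags or in longer tags that contain them, and of these S5 and S7 were called lower and S16 and S19 higher under stress. S5 (17 bases) had 0.792%, 1.14% and 1.08% in normal and 0.243%, 0.366% and 0.346% in stress libraries, and S7, 1 base shorter at the end, had 0.544%, 0.730% and 0.701% against 0.194%, 0.239% and 0.252%. They fell, with log2 fold changes of -1.91 ± 0.23 and -1.78 ± 0.19 (edgeR quasi-likelihood, Benjamini-Hochberg adjusted p = 0.00175 for both; 0.00309 and 0.00547 with the replicate block).

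S16 and S19 have the letters of S5 and S7 with 1 more base at the start, and were listed in the 3 stress libraries alone. S16 had 0.317%, 0.481% and 0.406% and S19 0.255%, 0.360% and 0.298%, at least 3.79-fold and 2.88-fold higher than the normal libraries could list. Both were called higher (edgeR quasi-likelihood, Benjamini-Hochberg adjusted p = 0.00175), as tags at 0 in all normal libraries had to be, but not with the replicate block (0.175 and 0.313). The 6 short tags together were a small part of their 24-tag family, 9.33% to 11.9% of its reads in normal and 6.91% to 10.3% in stress libraries.

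In C. zofingiensis Z10 and Z15, for which no motif was found, match all 4 of these tags with 1 difference, A2T against S5 and S7 and A3T against S16 and S19, counted from 1 at the 5′ end of the C. sorokiniana tag with its base first. Z10 had 0.310%, 0.284% and 0.223% in normal and 0.314%, 0.344% and 0.501% in stress libraries, with a log2 fold change of 0.13 ± 0.21 (edgeR quasi-likelihood, Benjamini-Hochberg adjusted p = 0.673). Z15, 1 base longer at the end, had 0.152%, 0.185% and 0.169% against 0.209%, 0.323% and 0.379%, with 0.46 ± 0.21 (adjusted p = 0.117, edgeR). Neither passed, and the shares of both were higher in all stress libraries. Z13, the short tag of C. zofingiensis that holds CAACAACGG, matches S30 over 14 bases without a difference. It had 0.170%, 0.252% and 0.264% in normal and 0.264%, 0.283% and 0.315% in stress libraries and did not pass (log2 fold change -0.04, adjusted p = 0.903, edgeR). The difference between the algae was not tested.

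The start of the 28S rRNA, the large RNA of the cytoplasmic ribosome, holds TGAGCTCAG, found in 6.63% of C. sorokiniana and 12.1% of C. zofingiensis tags. In C. zofingiensis Z11, Z6 and Z4 form a ladder at it with 16, 17 and 18 bases that share the start and step forward at the end. Z4 had 0.644%, 0.677% and 0.549% in normal and 0.762%, 0.905% and 0.976% in stress libraries, and its log2 fold change was 0.13 ± 0.13 (edgeR quasi-likelihood, Benjamini-Hochberg adjusted p = 0.478). With library totals alone Z4 was called higher (0.0311, edgeR). Z6 and Z11 did not pass either (adjusted p = 0.801 and 0.858, edgeR), and the 18-base form had the highest mean share of the ladder in both conditions. Z9 holds the 5.8S motif TTTGAACGC (1.21% of the tags of its table) and had 0.306%, 0.230% and 0.191% in normal and 0.476%, 0.478% and 0.423% in stress libraries (adjusted p = 0.0920, edgeR). It was called higher with library totals alone (0.0106) and without normal replicate 1 (0.0403).

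S21 holds the 18S motif TGCGGCTTA, found in no other tag of its table, and was listed under stress alone at 0.295%, 0.241% and 0.312%. That was at least 2.67-fold the share that the normal libraries could list. It was called higher (edgeR quasi-likelihood, Benjamini-Hochberg adjusted p = 0.00175), as a tag at 0 in all normal libraries had to be, but not with the replicate block (0.334). Bacteria-like 16S or 23S motifs, which chloroplast and mitochondrial rRNA can also hold, were found for 8 short tags of C. sorokiniana, 5 of them listed in stress libraries alone. Of these, S23 with the 16S end motif CACCTCCT (2.41% of tags) was listed in all 3 stress libraries at 0.201%, 0.280% and 0.254%. The 3 tags with GGTGAAATG summed to 0.464%, 1.44% and 0 in the stress libraries, so they rested on replicates 1 and 2. S11 and S12, with the 16S start motif GGAGAGTT, were listed in all 6 libraries, at 0.193% to 0.397% and 0.170% to 0.379%, and did not pass (adjusted p = 0.968 and 0.677, edgeR).

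Among the 22 C. zofingiensis tags listed in stress libraries alone, 14 held a motif of bacterial-type or transfer RNA. The 5 tags with ATCGNCAGG, a motif near the end of bacterial 5S rRNA held by 4.85% of tags of that alga and none of C. sorokiniana, had a summed share of 1.70%, 1.38% and 1.51% in stress libraries and were unlisted in all normal ones. The 8 tags with TANCTNAG, a motif of the tRNA D arm held by 7.88% of tags, had 1.15%, 1.34% and 2.09% in stress libraries and none in normal libraries. Of these 8, Z28, Z34, Z36 and Z42 were each listed in 1 library only, and Z28 and Z34 together held 1.09% of stress replicate 3. In C. sorokiniana 3 short tags had the D arm motif, all in normal libraries alone, with summed shares of 0.209%, 0.806% and 0. Of them, S29 and S38 were listed in normal replicate 2 only. One tag, Z20, held the 16S start motif, at 0.230%, 0.277% and 0.377%. Whether such reads came from the algal organelles or from other organisms in the cultures was not tested.

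The commonest of the tags listed under stress alone in C. zofingiensis were Z14, Z18 and Z19, a ladder of 17, 18 and 16 bases with the 5S motif. Z14 had 0.469%, 0.464% and 0.535%, Z18 had 0.371%, 0.331% and 0.359%, and Z19 had 0.329%, 0.284% and 0.359%. They were called higher (edgeR quasi-likelihood, Benjamini-Hochberg adjusted p = 4.43e-05, 4.97e-05 and 4.61e-05), as were the other 8 tags that all 3 stress libraries and no normal library listed. These tags passed the filter through the stress libraries and had to differ, so the p-values add nothing to the listing. With the replicate block none of the 11 was called (0.110, 0.275 and 0.326 for Z14, Z18 and Z19, edgeR with Benjamini-Hochberg adjustment). Over the 11 tags the bounds ran from 1.80-fold to 3.34-fold, and in C. sorokiniana from 2.32-fold to 4.17-fold over 5 tags. With unlisted tags at the smallest listed count Z22, Z23 and Z25 of these 11 were not called. Z25 was the only short tag that was also the most prominent tag of entries in the authors' annotation sheets, with 287 reads at 6 tRNA entries in stress replicate 3, the same count as in the tag table.

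All 292 tags of both tables end in A, so the last base carries no information that tells tags apart, and in ladders that lengthen at the end it stands after different bases. Whether the last A was part of the RNA was not tested. As whole strings 29 of 43 short tags of C. sorokiniana and 19 of 51 of C. zofingiensis lay inside a longer tag of their species. With the last base of every tag removed the counts were 32 and 32. The bases of 3 C. sorokiniana tags (S32, S41 and S43) and 5 C. zofingiensis tags (Z13, Z24, Z27, Z33 and Z40), the last one removed, also lay inside a tag of the other species. A tag that the other table does not hold may still occur there below the limit of listing.

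Over the pairs of a short tag and a longer tag that contains it, 116 in C. sorokiniana shared the end and were longer at the start, 29 shared the start and 12 were longer at both ends. In C. zofingiensis the counts were 58, 50 and 25. Pairs within an abundant family repeat the same ends, so they are not independent. Between the algae 30 pairs of short tags matched over at least 14 bases with at most 2 differences, or over at least 16 with at most 3, and they involved 17 tags of C. sorokiniana and 15 of C. zofingiensis. S1, for example, differs from Z45 by G9A and A13T over 15 bases, and Z45 was listed in 1 normal library only.

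The short form share, the reads of short tags inside longer ones as a percent of those reads and of the reads of the longer tags, was 39.5%, 43.1% and 37.1% in normal and 36.0%, 38.1% and 36.3% in stress libraries of C. sorokiniana. In C. zofingiensis it was 26.3%, 26.5% and 18.6% against 33.8%, 26.3% and 24.7%. The groups overlapped in both species. With the last base removed it was 40.3%, 44.3% and 39.3% against 36.9%, 39.2% and 37.4% in C. sorokiniana, and 19.2%, 17.1% and 12.8% against 30.7%, 24.1% and 24.6% in C. zofingiensis. The groups then did not overlap in either species, with the stress libraries lower in C. sorokiniana and higher in C. zofingiensis. When a longer tag needed to share only 14 bases, the stress libraries were higher in both algae without overlap, by 4.41 percentage points in C. sorokiniana and 5.39 in C. zofingiensis.

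**Figure D5:**
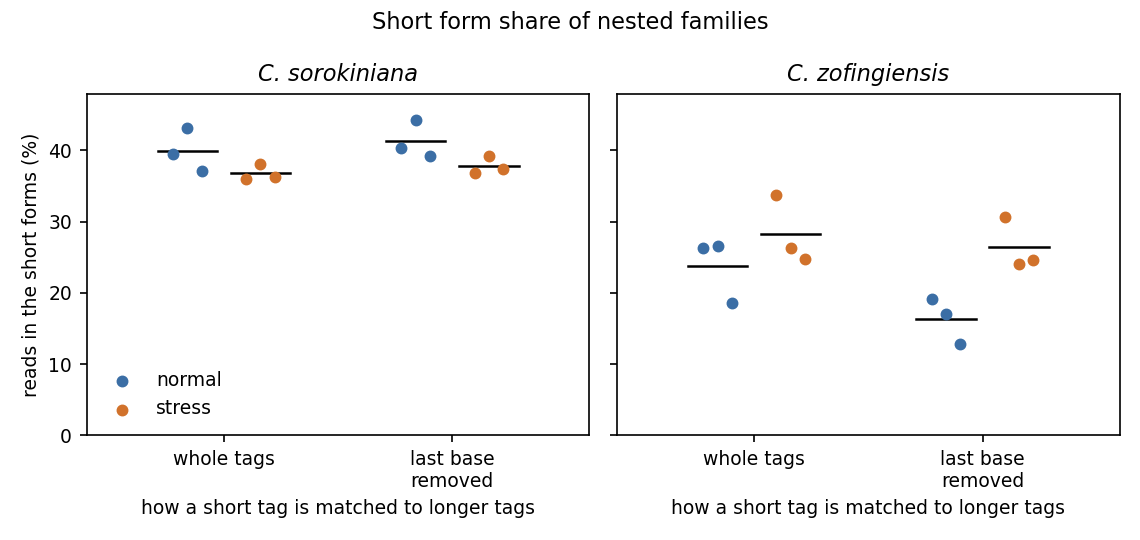
Reads in short tags as a percent of the reads of these tags and the longer tags that contain them, matched as whole tags or with the last base removed; points are libraries and lines the mean of 3. With the last base removed the C. zofingiensis stress libraries lie at 24.1% to 30.7%, above the normal libraries at 12.8% to 19.2%.

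GC content did not set the short tags apart by much. Without the last base the median was 46.7% (range 29.4% to 75.0%) in C. sorokiniana, against 50.0% for the other tags of its table, and 56.2% (31.2% to 75.0%) in C. zofingiensis, against 59.1%. The least counts show how close tags lay to the limit of listing. The smallest short tag count was at the limit itself in normal replicate 2 of C. sorokiniana (S32, 179 reads) and in stress replicate 3 of C. zofingiensis (Z40, 208 reads). In stress replicates 1 and 2 of C. zofingiensis it was 1008 reads (Z32) and 193 (Z25), beside limits of 997 and 192.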

How the data were processed

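The authors deposited, per the file headers, whole-number counts of reads per tag for each library, with a p-value (FDR) of their own test. DESeq and the Arabidopsis build TAIR9 are named in the submitters' processing notes; trimming is not given in the sources used here. Per the labels' protocols, the kit was NEBNext Multiplex Small RNA. Counts of each species were tested with edgeR 4.0.16 (R 4.3.3), quasi-likelihood, TMM, filterByExpr, robust fit, condition as the only term, Benjamini-Hochberg adjustment; SE is the log2 fold change over the root of F. The script was tested on simulated data. A fold bound divides the mean share by the mean of the other group's smallest listed shares. Alternatives used DESeq2 1.42.0. Deviations of same-numbered libraries correlated at 0.54, 0.13 and 0.52 over 54 tags in C. sorokiniana, above 0.1 in each pair. Those of different numbers ran from -0.58 to 0.29, the highest for normal replicate 2 with stress replicate 3. Named tags were, per species, the 5 commonest, the 5 largest called changes in each direction and the 5 commonest of 1 condition; others, and tags with bacterial-type motifs, which that rule only counts, were singled out after their values were seen. Members and lists were chosen with earlier results of these data known. Tag sequences are not printed. Listed reads are not sequencing depth, and their number limits the precision of every share. Replicate pairs differed by far more than sampling noise.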

Additional observations from a re-analysis of the deposited data

Results flagged for a closer look

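Some shares lay lower in every stress library of C. sorokiniana and higher in every stress library of C. zofingiensis, and no such difference between the algae was tested. The short form share with the last base removed, a match chosen after seeing the data, differed between stress and normal by -3.45 percentage points in C. sorokiniana and by 10.1 in C. zofingiensis. When longer tags needed to share only 14 bases the differences were 4.41 and 5.39 points, the same direction in both algae. The tags S5 and S7 fell in C. sorokiniana, with log2 fold changes of -1.91 and -1.78. Z10 and Z15, which match them with 1 difference, had 0.13 and 0.46 in C. zofingiensis and did not pass (adjusted p = 0.673 and 0.117, edgeR with Benjamini-Hochberg adjustment), so no change was shown there. Z10 and Z15 also match S16 and S19 with 1 difference. S16 and S19 were listed in stress libraries alone, so their calls as higher had to follow. Those calls were lost with the replicate block (0.175 and 0.313, edgeR with Benjamini-Hochberg adjustment). In share they lay at least 3.79-fold and 2.88-fold above the normal limits. The direction of the shares thus depends on which related tag is set beside Z10 and Z15. With 3 libraries in a group no library was tested for standing apart.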

How the results depend on the processing

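In C. sorokiniana the 13 calls became 22 with DESeq2's Wald test, 11 of them lower, and 7, 4 of them higher, when only tags listed in all libraries were fitted, a fit that holds 11 short tags. The Wald test was run without the filter, on 43 short tags in place of 24. All the calls it gained were of tags that the main fit had not tested. With the replicate block the 13 calls became 4, 2 higher and 2 lower. In C. zofingiensis the 20 calls became 4, 2 higher and 2 lower, with tags listed in all libraries, and 5, 2 higher and 3 lower, with the replicate block, although its same-numbered libraries correlated at only 0.07, -0.05 and 0.17. Leaving out each library in turn gave 10 to 16 and 20 to 23 calls. Neither DESeq2's size factors, library totals, no filter nor unlisted tags at the smallest listed count moved a count by over 1.5 times. The tags behind the counts changed more. With unlisted tags at the smallest listed count, 10 of 14 calls in C. sorokiniana and 16 of 21 in C. zofingiensis were also calls of the main fit. The stress difference in short form share of C. sorokiniana turned to 4.41 points when longer tags needed to share only 14 bases; the cause was not tested. S4 turned to -0.20 with unlisted tags at the smallest listed count and ran from -0.14 (without normal replicate 1) to 0.67 when each library was left out, and Z4 turned to -0.056 with unlisted tags at that count; none of these passed, and the cause was not tested. As within-number differences (replicate block) the share of listed reads was 6.01 and 5.11 points higher under stress, as without pairing, and a sign-flip test of 3 pairs cannot give p below 0.25. Without S2 and without Z2 the differences in share were 2.57 and 3.22 points. The last base removed and the sums without some members, these included, were chosen after seeing the data. Tags below a library's limit of listing cannot be seen, and the limits were higher in stress libraries.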
